A study of Mus musculus with 82 samples.

Results

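Tumours of 2 mouse mammary tumour models, 2224 and 2225, were compared by RNA sequencing. The members were all 14 libraries whose label starts with either model number, 4 of 2224 and 10 of 2225, out of 82 libraries of 13 models. Both models carry the strain label BALB/c, and every tumour was an individual, untreated mammary tumour that had been stored frozen before its RNA was extracted. The labels name no driver gene, promoter, allele, passage or age for either model, and no treatment or genotype by which the models differ other than the model itself. Whether a model's libraries came from separate primary tumours or from transplants of 1 tumour is not given either. The p values of single genes set a difference against the spread among libraries within a model, estimated over all 82 libraries. That spread may therefore lie among transplants of 1 tumour, or be in part technical. In that case the p values do not cover the spread between tumours that arose separately. As background, tumour lines with these numbers are known from a collection of transplantable mammary tumours that arose from BALB/c epithelium lacking the tumour suppressor Trp53. The host animals of such lines have their own stroma and immune cells, so each library mixes RNA of the graft and of the host.

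The pair was chosen because earlier results of these data had put Mdm2 high in 2224 and Dnmt3a low in 2225. Mdm2 is an E3 ubiquitin ligase that binds the p53 protein, blocks its activity as a transcription factor and sends it for degradation, and p53 in turn activates the Mdm2 gene. In many tumours the Mdm2 gene is present in extra copies together with its neighbours. Dnmt3a is a DNA methyltransferase that adds methyl groups to cytosines in CG dinucleotides that were not methylated before. Together with its relative Dnmt3b it sets the methylation pattern of the early embryo and of germ cells, while Dnmt1 copies that pattern at each cell division. Methylated promoters are usually silent, and germ-line genes and imprinted genes, which are expressed from the copy of 1 parent, are among the best known genes kept off in this way. Neither DNA methylation nor gene copy number was measured in these libraries.

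The 14 libraries held 35.2 to 93.0 M counts (M, mega) in 2224 and 17.2 to 97.6 M in 2225, and an exact permutation test of the difference in mean total gave no call (two-sided p = 0.362 over 1001 splits). Across genes, the log2 level of a library correlated at 0.960 to 0.987 with libraries of its own model in 2224, at 0.970 to 0.990 in 2225, and at 0.922 to 0.938 with libraries of the other model. Levels below are in CPM, counts per M of the scaled library total, and they are compared only within a gene because CPM is not adjusted for gene length. Differences are log2 values of 2224 minus 2225 with their standard error (SE), so that a positive value is higher in 2224, and the adjusted p comes from edgeR over all genes tested. A gene was called when its adjusted p was under 0.05. For 2225 the lowest, the median and the highest of the 10 libraries are given in that order, and for 2224 the values of replicates 1 to 4.

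Of 22847 genes tested, 10819 were called (47.4%), 5684 of them higher in 2224 (24.9%) and 5135 higher in 2225 (22.5%). The libraries of both models did not overlap for 6722 genes (29.4%), of which 3386 called genes were higher in 2224 (14.8%) and 3127 called genes were higher in 2225 (13.7%). The median difference over all tested genes was 0.000826 on the log2 scale. The counts for groups of genes that follow are to be read against these shares.

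The genes with the widest differences were nearly off in 1 model. Here and in the next paragraph they were picked for having no overlap between the models, so their separation was a condition of the choice. Fgf8, a secreted fibroblast growth factor of embryonic patterning and of mouse mammary tumours (chr19:45736798-45742915), stood at 43.3, 66.6, 84.6 and 84.4 CPM in 2224 and at 0, 0 and 0.05996 CPM in 2225, a difference of 12.18 ± 0.51, adjusted p = 1.4e-32. The smallest 2224 value was far above every 2225 library. Etos1, a testis-associated RNA gene (chr7:130770638-130772652), had 44.8, 51.9, 49.1 and 52.2 CPM in 2224 and no count in any of the 10 libraries of 2225. This is at least 9489-fold higher when 3 counts over the summed depth of 2225 are taken as the floor, which covers counting error only. Tfap2b, a transcription factor of ectoderm and the mammary gland, measured 37.5, 34.3, 30.9 and 33.2 CPM against 0, 0 and 0.131 CPM (11.18 ± 1.41, adjusted p = 4.22e-10). Lyz1, a lysozyme best known from Paneth cells, reached 396, 276, 250.2 and 295 CPM against 0.0436, 0.332 and 0.839 CPM (9.80 ± 0.94, adjusted p = 2.42e-14), and reads that it shares with its near copy Lyz2 may be split between them. Lyz1 (chr10:117287797-117292868) lies within the chromosome 10 run around Mdm2 that is described below, and Mdm2 chose the pair. The other genes of this kind, Tmem229a, Lipk, Fkbp6, Kctd19, Bex4, Gad1 and Lrrc9, had means of 5.07 to 18.4 CPM in 2224 and no more than 0.0274 CPM in 2225. Without 2225 replicate 7 the difference was 13.47 for Fgf8 and 12.04 for Lipk, without 2225 replicate 1 it was 12.53 for Tfap2b, and without 2225 replicate 3 it was 12.17 for Tmem229a.

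In the other direction the widest difference was that of Ren1, the gene of renin, the protease that starts the angiotensin cascade and is normally made by the kidney (chr1:133350510-133360325). Ren1 stood at 0.0505, 0.02102, 0.0862 and 0 CPM in 2224 and at 289.9, 331 and 366 CPM in 2225 (-13.00 ± 1.20, adjusted p = 4.78e-15). No library of 2224 came near the 2225 range, and the mean of each of the other 11 models was at most 1.22 CPM. Cldn6, a tight-junction claudin of embryonic epithelia, had 0, 0.0315, 0.0493 and 0.0253 CPM against 24.3, 35.7 and 57.03 CPM (-10.18 ± 0.91, adjusted p = 9.02e-16), with at most 0.123 CPM elsewhere in the series. Rspo4, a secreted R-spondin that strengthens Wnt signals, had 0.0253, 0.0736, 0 and 0.0633 CPM against 34.4, 49.1 and 77.4 CPM (-10.16 ± 0.85, adjusted p = 4.79e-17). Dkk4, a secreted Wnt inhibitor that is itself a Wnt target, had no count in 2224 and 4.16, 8.34 and 15.5 CPM in 2225, at least 937-fold higher. Xlr4a, an X-linked gene of a lymphocyte-regulated family with near copies, ran from 25.2 to 46.2 CPM in 2225 with a 2224 mean of 0.0515 ± 0.03699 CPM (SD, n = 4), and Pdzrn4, a ring-finger scaffold protein, from 23.6 to 44.97 CPM with 0.0649 ± 0.0202 CPM. S100g, Noxa1, Otor and Grid1 completed the list with 2225 means of 5.31 to 13.5 CPM and at most 0.0247 CPM in 2224. The size of such a difference depends on a few counts in 2224: without replicate 3 it was -13.91 for Ren1, without replicate 4 -9.92 for Xlr4a, without replicate 2 -11.89 for S100g and -11.59 for Noxa1, and without replicate 1 -10.44 for Otor. Renin-angiotensin genes as a group did not follow Ren1, and the 22.2% called each way lay close to the shares over all genes. Of 9 tested, 2 were higher in each model, with Ace, the enzyme that converts angiotensin I, at 42.7, 73.2, 120.3 and 109 CPM in 2224 and 6.496, 17.9 and 39.4 CPM in 2225 (2.26 ± 0.41, adjusted p = 4.17e-06).

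**Figure D1:**
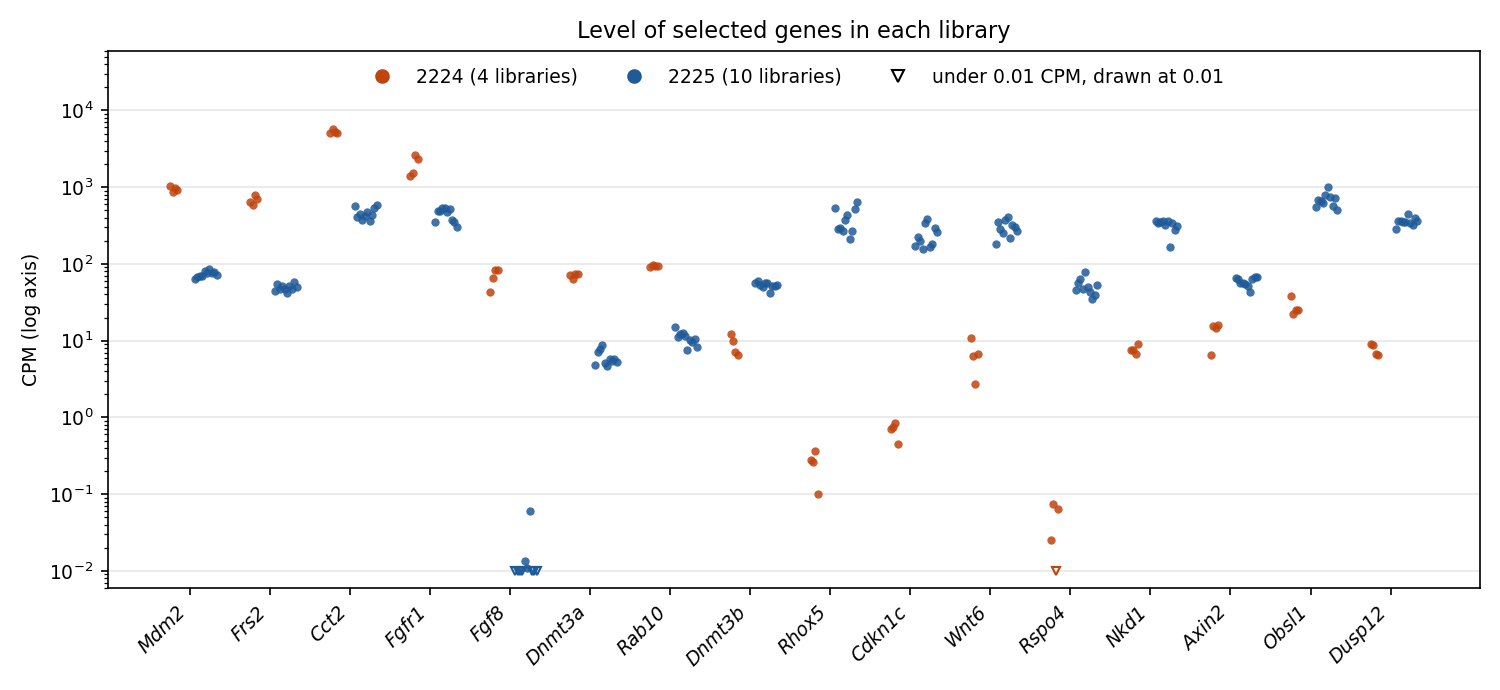
Levels of 16 genes in each library, 4 of 2224 and 10 of 2225, in CPM on a log axis; each point is 1 library and open triangles are values under 0.01 CPM drawn at 0.01. Mdm2, Frs2, Cct2, Fgfr1 and Fgf8 lie higher in the 2224 libraries, while Rhox5, Cdkn1c, Wnt6, Rspo4 and Nkd1 lie higher in the 2225 libraries, in each case with no overlap.

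Mdm2 (chr10:117688875-117710758, minus strand) stood at 1042, 855, 971 and 919 CPM in 2224 and at 63.2, 73.7 and 85.6 CPM in 2225. The 4 libraries of 2224 lay close together and all above the 10 of 2225. The mean was 12.8 times that of 2225, and the other 11 models had means of 43.5 to 97.2 CPM, so that 2225 lay inside their range and 2224 did not. Because Mdm2 chose the pair, its level is given as a description without a test.

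The neighbours of Mdm2 on chromosome 10 were high in 2224 as well. Frs2, the adaptor that links active fibroblast growth factor receptors to the Ras pathway, had 639, 582, 781 and 701 CPM in 2224 and 41.7, 48.9 and 57.6 CPM in 2225 (3.78 ± 0.18, adjusted p = 4.87e-30). Cct2, a subunit of the chaperonin that folds actin and tubulin, had 5107, 5791, 5317 and 5088 CPM against 358, 439 and 591 CPM (3.53 ± 0.11, adjusted p = 1.76e-41). Yeats4, which reads acetylated histones in chromatin-remodelling complexes, had 419, 435, 358 and 389.9 CPM against 39.4, 50.3 and 68.6 CPM (2.96 ± 0.13, adjusted p = 6.9e-32). In all 3 genes the lowest 2224 library was more than any 2225 library. Slc35e3, a solute carrier next to Mdm2, differed by 3.54 ± 0.11, Rab3ip, an exchange factor for Rab proteins, by 2.70 ± 0.12, Nup107, a nuclear pore protein, by 2.30 ± 0.13, Rap1b, a Ras-like GTPase, by 2.07 ± 0.10, and Mdm1, a microtubule-binding protein, by 2.01 ± 0.15.

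From Rab3ip to Mdm1 (chr10:116905784-118168997), 16 genes beside Mdm2 were tested, 14 were higher in 2224 and 1 was higher in 2225, with a median difference of 2.50. The ends of this run, and of the runs below, were chosen after the values were seen. The exception was Cpm, a membrane carboxypeptidase that lies within the run, at 93.4, 21.2, 54.9 and 54.01 CPM in 2224 and 250.5, 297 and 486 CPM in 2225 (-2.50 ± 0.47, adjusted p = 6.58e-06). Against the mean of the other 11 models, the median of these 16 was 2.32 for 2224 and 0.11 for 2225. Of the 50 tested genes outside the run but within 5 Mb of Mdm2 on either side, 12 were higher in 2224 and 18 higher in 2225, with a median difference of -0.51. Copy number was not measured, so a gain of this segment and a higher output per copy cannot be told apart.

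Dnmt3a (chr12:3806007-3914443, plus strand) stood at 72.6, 63.8, 72.9 and 73.6 CPM in 2224 and at 4.74, 5.58 and 8.704 CPM in 2225. The 10 libraries of 2225 all lay below the 4 of 2224. Here the model outside the common range was 2225, since the other 11 models had means of 48.6 to 163 CPM. Dnmt3a also chose the pair, and its level carries no test. Its promoter at the upstream start in RefSeq (GRCm38.p6, chr12:3806730-3807029, plus strand, 250 bases before the start to 50 after) is shown because it is rich in the dinucleotide that the enzyme itself modifies. It holds 46 CG dinucleotides, in capitals, more than 98.4% of all 32851 promoters of the same length, whose median was 7.
Dnmt3a: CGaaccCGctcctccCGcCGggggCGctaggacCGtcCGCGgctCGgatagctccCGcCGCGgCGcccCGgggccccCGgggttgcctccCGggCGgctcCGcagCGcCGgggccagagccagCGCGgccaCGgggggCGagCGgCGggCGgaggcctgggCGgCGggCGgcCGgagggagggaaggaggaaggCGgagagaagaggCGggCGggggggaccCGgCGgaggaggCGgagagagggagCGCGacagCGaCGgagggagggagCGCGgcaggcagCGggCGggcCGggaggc

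The genes next to Dnmt3a on chromosome 12 were low in 2225 with it. Rab10, a GTPase of membrane traffic, had 92.01, 96.5, 94.6 and 93.97 CPM in 2224 and 7.53, 10.8 and 14.98 CPM in 2225 (3.12 ± 0.11, adjusted p = 2.79e-38), while the other 11 models had 108 to 335 CPM. Dtnb, a dystrobrevin, had 30.6, 44.1, 44.6 and 45.95 CPM against 0.144, 0.5499 and 0.733 CPM (6.34 ± 0.18, adjusted p = 1.79e-44). Asxl2, a Polycomb-associated regulator of chromatin, had 38.8, 29.7, 34.3 and 32.3 CPM against 1.46, 2.696 and 3.72 CPM (3.71 ± 0.20, adjusted p = 3.25e-26). None of these 3 genes overlapped between the models. Kif3c, a kinesin motor, differed by 4.12 ± 0.16, and Dnajc27, a J-domain GTPase, by 2.72 ± 0.15.

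From Rab10 to Dnajc27 (chr12:3247428-4110606), 11 genes beside Dnmt3a were tested and 8 were called, each higher in 2224, with a median difference of 3.12 over the 11. Against the mean of the other 11 models the median of the 11 was -3.59 for 2225 and -0.62 for 2224. Outside the run but within 5 Mb of Dnmt3a on either side, 11 of 25 tested genes were higher in 2224 and 1 was higher in 2225. That 1 was Rab10os, an antisense RNA gene of Rab10, at 13.995, 15.996, 16.8 and 18.7 CPM against 17.3, 23.8 and 30.2 CPM (-0.55 ± 0.19, adjusted p = 0.015), whose call ended without 2224 replicate 1 (-0.49, adjusted p = 0.0583). Rab10os and Rab10 overlap only in part (chr12:3235504-3250377 and chr12:3247428-3309969). The strand of the counted reads was not stated, so reads from the shared stretch cannot be told apart.

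**Figure D2:**
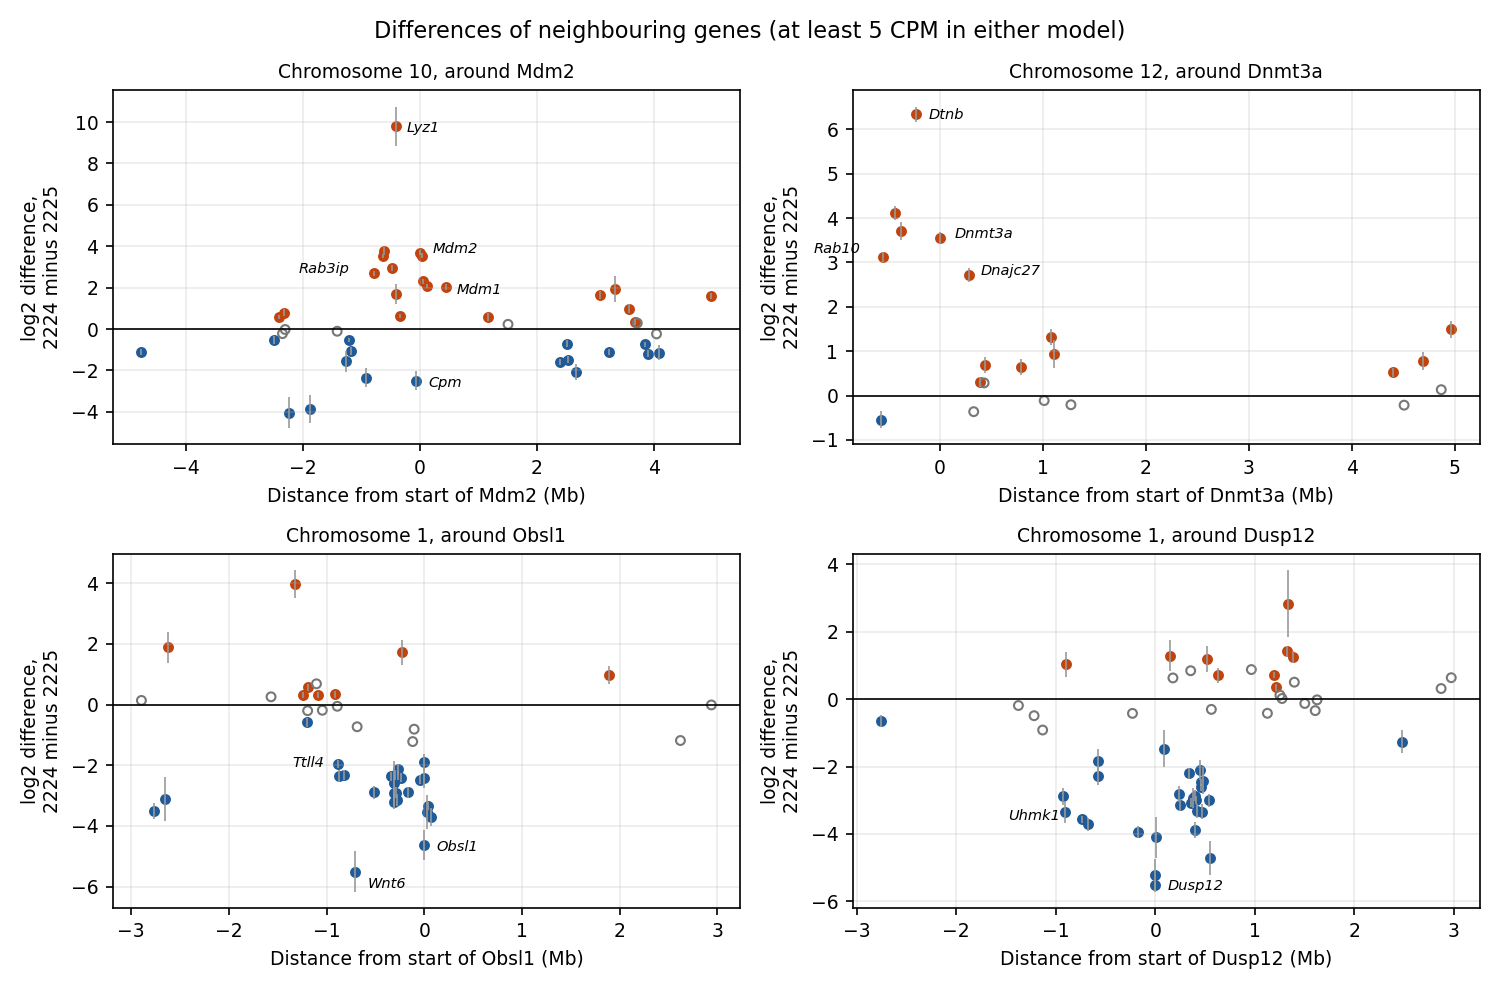
Log2 difference between 2224 and 2225 (± SE) of genes with at least 5 CPM in either model against the distance in Mb from the start of Mdm2, Dnmt3a, Obsl1 and Dusp12; red points were called higher in 2224, blue points higher in 2225, and open grey points were not called. High values stand in a short block around Mdm2 and around Dnmt3a, and low values in a block around Obsl1 and around Dusp12.

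Other enzymes of DNA methylation did not fall together with Dnmt3a. Of the other 17 tested genes of the methylation machinery, 6 were higher in 2225 and 0 higher in 2224 by edgeR, where 0 also had an unadjusted p under 0.05, and by DESeq2. Dnmt3b, the other de novo methyltransferase, had 12.3, 9.88, 7.11 and 6.51 CPM in 2224 and 42.01, 53.04 and 60.1 CPM in 2225 (-2.57 ± 0.27, adjusted p = 3.89e-13), so every 2225 library was above every 2224 library. The other 11 models had means of 3.38 to 24.4 CPM, all below the mean of 2225, 53.1 ± 4.95 CPM (SD, n = 10). Trim28, the corepressor that recruits silencing complexes to retroviral elements and imprinted regions, had 269, 349.96, 286 and 311 CPM against 374, 459.8 and 586 CPM (-0.62 ± 0.13, adjusted p = 3.05e-05), and Mbd4 and Tdg, glycosylases that remove thymine left by deaminated methylcytosine, differed by -1.05 ± 0.14 and -0.56 ± 0.13. The maintenance enzyme Dnmt1 differed by 0.17 ± 0.12, adjusted p = 0.252, and neither Uhrf1, its guide to hemimethylated DNA, nor Tet1, Tet2 and Tet3, which oxidise methylcytosine, passed the threshold.

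Among genes whose promoters are often regulated by methylation, Rhox5 stood out in 2225. Rhox5, an X-linked homeobox gene of the male and female reproductive tract (chrX:37804842-37808876), had 0.278, 0.263, 0.3696 and 0.101 CPM in 2224 and 211, 334 and 644 CPM in 2225 (-10.57 ± 0.54, adjusted p = 4.28e-28). The groups did not overlap, and the other 11 models had means of 0.0344 to 221 CPM. Its promoter at the upstream start given by RefSeq (GRCm38.p6, chrX:37754358-37754657, plus strand) is shown for comparison with that of Dnmt3a, with its CG dinucleotides, the sites of methylation, in capitals. It holds 5, more than 38.0% of all promoters of the same length. This start lies upstream of the gene model whose coordinates are given above, and which start the counted reads came from was not measured.
Rhox5: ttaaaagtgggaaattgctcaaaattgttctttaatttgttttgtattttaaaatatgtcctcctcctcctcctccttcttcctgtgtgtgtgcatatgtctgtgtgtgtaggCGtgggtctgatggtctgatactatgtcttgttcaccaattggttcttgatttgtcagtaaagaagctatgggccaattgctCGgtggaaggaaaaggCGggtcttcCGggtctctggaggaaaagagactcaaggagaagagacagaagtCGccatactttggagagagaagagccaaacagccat

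Rhox2g, of the same X-linked cluster, had no count in 2224 and 2.88, 5.59 and 8.17 CPM in 2225, at least 561-fold higher, but has near copies among which reads can be split. Of 18 germ-line genes, 10 passed the filter on low counts. Of these, 1 was called higher in 2224 (10%) and 2 higher in 2225 (20%), beside 24.9% and 22.5% of all genes. Apart from Rhox5 the called members were low in both models, and the counts rested on single libraries. The 1 became 2 without 2224 replicate 1 or 2225 replicate 2, and the 2 became 1 without 2224 replicate 2, 3 or 4 or 2225 replicate 5 or 6.

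Imprinted genes were called in both directions, 6 of 20 higher in 2224 and 8 higher in 2225, with a median difference of 0.34. The shares were 30% and 40%, beside 24.9% and 22.5% of all genes. Cdkn1c, an imprinted inhibitor of cyclin-dependent kinases that limits growth of the embryo, had 0.707, 0.746, 0.838 and 0.456 CPM in 2224 and 159, 212 and 386 CPM in 2225 (-8.44 ± 0.64, adjusted p = 8.29e-19). Igf2, a fetal growth factor made from the paternal copy, had 3.79, 4.79, 7.19 and 2.66 CPM against 57.2, 105 and 339 CPM (-4.73 ± 0.87, adjusted p = 4.83e-06), and H19, the maternally expressed RNA gene next to it, had 110.1, 91.7, 205 and 30.1 CPM against 439.9, 1869 and 5382 CPM (-4.37 ± 0.95, adjusted p = 9.66e-05). All 3 were higher in each 2225 library than in any 2224 library. They lie close together on chromosome 7, with starts at 142575529 for H19, 142650766 for Igf2 and 143458339 for Cdkn1c. They are therefore neighbours and not genes from separate parts of the genome. Peg3, a paternally expressed zinc finger gene, had 61.1, 51.98, 68.7 and 59.1 CPM against 149, 197 and 289 CPM (-1.75 ± 0.48, adjusted p = 0.00187).

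In the other direction, Snrpn, a paternally expressed splicing factor gene, had 19.98, 36.7, 35.2 and 33.2 CPM in 2224 and 3.41, 3.79 and 5.48 CPM in 2225 (2.93 ± 0.18, adjusted p = 2.62e-24), and Igf2r, which binds and clears Igf2 and is expressed from the maternal copy, had 364, 284, 373 and 299.8 CPM against 107, 136 and 162 CPM (1.29 ± 0.15, adjusted p = 4.21e-11). The ranges of both genes were apart. The counts of imprinted genes depended on single libraries, with 3 higher in 2224 without 2224 replicate 2 or 3, and 5 higher in 2225 without 2224 replicate 2, 3 or 4. Gene-level counts do not separate the parental copies.

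Runs of neighbouring genes that differed together were also found elsewhere. The genome was divided into bins of 2 Mb, and 542 bins held at least 8 tested genes with 5 CPM or more in either model. The median difference was over 1 in 15 bins and under -1 in 9, and over all tested genes, with no filter on the level, in 31 and 22 of 843 bins. The lowest of the 542 was chromosome 1 from 170 to 172 Mb, at -2.81, where 25 of 33 genes were higher in 2225. Dusp12, a phosphatase of this bin (chr1:170873498-170885540), had 9.09, 8.797, 6.66 and 6.47 CPM in 2224 and 288, 354 and 453 CPM in 2225 (-5.53 ± 0.17, adjusted p = 2.66e-41), against 9.27 to 19.1 CPM in the other 11 models. Uhmk1, a kinase of splicing factors, had 153, 94.7, 99.8 and 95.96 CPM against 1208, 1416 and 1745 CPM (-3.71 ± 0.20, adjusted p = 6.2e-27). Neither of these genes overlapped between the models. Atf6, a sensor of unfolded protein in the endoplasmic reticulum, differed by -3.95 ± 0.18. From Uap1 to Usf1 (chr1:170141938-171419142), 32 of 46 tested genes were higher in 2225 and 4 higher in 2224, and the median against the other 11 models was 2.72 for 2225 and -0.08 for 2224.

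The next lowest bin was chromosome 1 from 74 to 76 Mb, at -2.32, with 24 of 37 genes higher in 2225. Obsl1, a cytoskeletal linker (chr1:75479310-75506452), had 38.05, 22.5, 25.1 and 25.5 CPM in 2224 and 498, 673 and 1017 CPM in 2225 (-4.62 ± 0.50, adjusted p = 1.63e-12), with wide space between the models. Ttll4, a polyglutamylase, differed by -2.32 ± 0.16, Cnppd1, a cyclin-like protein, by -2.37 ± 0.14 and Slc4a3, an anion exchanger, by -3.71 ± 0.30. From Rnf25 to Slc4a3 (chr1:74593748-75562172), 29 of 37 tested genes were higher in 2225, with a median against the other models of 2.43 for 2225 and 0.11 for 2224. On chromosome 17 from 28 to 30 Mb, 31 of 32 genes were higher in 2225 (median -1.55), among them the ribosomal protein gene Rpl10a (-1.29 ± 0.16), the splicing factor gene Srsf3 (-1.58 ± 0.14) and the mitochondrial carrier gene Mtch1 (-1.25 ± 0.18). Myb, a transcription factor of proliferating progenitors, lies in the bin of chromosome 10 from 20 to 22 Mb, where 7 of 8 genes were higher in 2225, and had 8.87, 10.6, 7.76 and 8.28 CPM in 2224 and 109.9, 183 and 216 CPM in 2225 (-4.32 ± 0.36, adjusted p = 6.87e-17).

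Bins high in 2224 lay on chromosomes 7 and 8 beside that of Mdm2. On chromosome 8, 18 of 22 genes from 22 to 24 Mb, 14 of 15 from 24 to 26 Mb and 9 of 9 from 26 to 28 Mb were higher in 2224, with medians of 1.71, 1.40 and 1.71. They include the fibroblast growth factor receptor gene Fgfr1, the secreted Wnt inhibitor gene Sfrp1, Kat6a, a histone acetyltransferase (2.03 ± 0.18), Eif4ebp1, a brake on cap-dependent translation (1.99 ± 0.17), and Erlin2, an endoplasmic reticulum protein, at 433, 386, 412 and 377 CPM in 2224 and 54.6, 62.6 and 72.9 CPM in 2225 (2.69 ± 0.10, adjusted p = 1.91e-37). On chromosome 7, 73 of 77 genes from 126 to 128 Mb and 14 of 14 from 128 to 130 Mb were higher in 2224, with medians of 1.51 and 1.52. Eif3c, a subunit of the translation initiation factor eIF3, had 827, 842, 830.1 and 778 CPM against 226, 259.8 and 294 CPM (1.64 ± 0.08, adjusted p = 5.12e-28). Atxn2l, an RNA-binding protein of stress granules, differed by 1.84 ± 0.15, and Sec23ip, a component of vesicle export sites, by 1.82 ± 0.10. The highest bin of all, chromosome 3 from 92 to 94 Mb at 3.29, holds genes of the cornified layer of skin, which are described below by library.

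Mdm2 acts on p53, and the p53 network was called in both directions. Trp53 had 100.5, 137, 164 and 151 CPM in 2224 and 163, 234 and 289 CPM in 2225 (-0.74 ± 0.21, adjusted p = 0.00214). Replicate 3 of 2224 reached just above the lowest library of 2225, so the ranges touched. Gene-level counts do not show whether this Trp53 RNA was intact, or whether it came from the graft or the host. The p53 protein was not measured, and whether Mdm2 acted on it in these tumours was not tested. Cdkn2a, whose locus encodes both a CDK inhibitor and an inhibitor of Mdm2 that gene counts do not separate, had 29.96, 49.9, 55.5 and 42.6 CPM against 101, 129 and 196 CPM (-1.62 ± 0.43, adjusted p = 0.00117), and Trp73, a p53 relative, had 3.33, 5.62, 4.42 and 6.36 CPM against 16.1, 18.8 and 26.6 CPM (-2.01 ± 0.53, adjusted p = 0.0013). Of 9 tested regulators beside Mdm2, 5 were higher in 2225 and 2 higher in 2224. The 2 became 1 without 2224 replicate 2 and 0 without 2224 replicate 1, where 1 had an unadjusted p under 0.05 in edgeR.

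Of 22 p53 target genes tested, 6 were higher in 2224 and 9 higher in 2225, with a median of -0.09, shares of 27.3% and 40.9%. Zmat3, an RNA-binding target, had 33.4, 33.97, 28.3 and 28.9 CPM in 2224 and 12.9, 14.8 and 18.5 CPM in 2225 (1.03 ± 0.17, adjusted p = 3.11e-07), and Tnfrsf10b, a death receptor, had 17.4, 20.4, 20.6 and 19.6 CPM against 9.58, 10.7 and 13.6 CPM (0.80 ± 0.12, adjusted p = 2.43e-08). Rrm2b, a ribonucleotide reductase subunit for repair, differed by 0.90 ± 0.19. By contrast Cdkn1a, the p21 inhibitor of the cell cycle, had 13.9, 19.8, 21.5 and 21.96 CPM against 17.5, 38.2 and 78.4 CPM (-1.11 ± 0.34, adjusted p = 0.00454), with overlap, and Trp53inp1, an inducer of p53-dependent death, had 22.2, 12.003, 16.6 and 12.6 CPM against 27.8, 50.999 and 63.5 CPM (-1.61 ± 0.28, adjusted p = 2.2e-06), without. The apoptosis genes Bax (0.25 ± 0.17, adjusted p = 0.239) and Bbc3 (-0.19 ± 0.29, adjusted p = 0.616) did not pass.

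Regulators of the G1 phase were split, 5 of 19 higher in 2224 (26.3%) and 7 higher in 2225 (36.8%), beside 24.9% and 22.5% of all genes. Rb1, the retinoblastoma brake on S phase entry, had 55.2, 39.6, 51.6 and 50.3 CPM in 2224 and 8.35, 10.1 and 12.5 CPM in 2225 (2.28 ± 0.23, adjusted p = 2.52e-13). Cdk4, the cyclin D kinase that phosphorylates the Rb protein, had 161, 215, 167 and 172 CPM against 438, 512 and 594 CPM (-1.54 ± 0.15, adjusted p = 5.31e-14), and Cdk6, its relative, differed by -1.46 ± 0.22. All 3 kept the models apart in every library. Ccnd1, cyclin D1, had 629.5, 1027, 979 and 977 CPM against 347, 562 and 638 CPM (0.74 ± 0.23, adjusted p = 0.00578), with replicate 1 of 2224 inside the 2225 range.

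Mki67, a marker of cycling cells, had 1128, 1045, 1066 and 892 CPM in 2224 and 329, 467 and 593 CPM in 2225 (1.15 ± 0.22, adjusted p = 1.07e-05), and the other 11 models had means of 112 to 653 CPM. Of 18 proliferation genes it alone was called higher in 2224, or with 1 other gene without 2224 replicate 1. Another 4 were higher in 2225, or 2 without 2224 replicate 3. The shares were 5.56% and 22.2%, beside 24.9% and 22.5% of all genes, so that of 2225 was near the share over all genes. Top2a, a topoisomerase of dividing cells, differed by -0.26 ± 0.20, adjusted p = 0.282, and Cdk1, the kinase of mitosis, by -0.72 ± 0.20, adjusted p = 0.00211. Among 20 replication genes, 2 were higher in 2224 (10%) and 7 in 2225 (35%). Rrm2, the S phase ribonucleotide reductase subunit, had 179, 177, 111 and 112 CPM against 37.8, 65.9 and 77.3 CPM (1.24 ± 0.25, adjusted p = 2.99e-05), whereas Cdt1 and Gins2, which license and start replication origins, differed by -0.94 ± 0.22 and -0.91 ± 0.20.

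Fibroblast growth factors (Fgfs) bind tyrosine kinase receptors, and Frs2 and Gab1 pass the signal to the MAP kinase cascade, whose output is dampened by Sprouty, Spred and Dusp proteins. Of the tested ligands 45.5%, of the receptors and adaptors 50% and of the feedback genes 38.5% were higher in 2224, beside 24.9% of all genes. The share of receptors and adaptors counts Frs2, which lies in the chromosome 10 run around Mdm2, a gene that chose the pair. It also counts Fgfr1 of the chromosome 8 run. Of 22 ligands, all of which passed the filter on low counts, 10 were higher in 2224 and 2 in 2225, or 1 without any 1 library of 2224 or without 2225 replicate 9 or 10, with a median difference of 1.14. Most of the ligands were low, 16 with a mean under 1 CPM in 2224 and 18 in 2225. The 10 called higher in 2224 include such low ligands, among them Fgf12, Fgf6 and Fgf5, with 2224 means of 0.928, 0.154 and 0.0431 CPM. Beside Fgf8, Fgf15, an endocrine Fgf of gut and embryo, had 8.61, 19.9, 21.6 and 18.3 CPM in 2224 and 0.01999, 0.144 and 0.311 CPM in 2225 (6.88 ± 0.45, adjusted p = 5.56e-22). Fgf2, a broad mitogen of basement membranes, had 9.83, 10.8, 14.1 and 9.04 CPM against 1.96, 3.5995 and 5.45 CPM (1.68 ± 0.27, adjusted p = 3.35e-07), and Fgf13, an intracellular member that binds sodium channels, differed by 5.10 ± 0.55. Neither Fgf15 nor Fgf2 overlapped between the models. Fgf7, a mesenchymal ligand for epithelia, was higher in 2225 (-1.78 ± 0.38, adjusted p = 7.84e-05).

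Of 12 tested receptor and adaptor genes, 6 were higher in 2224 and 1 in 2225 (median 0.55). Fgfr1, a receptor whose gene lies in the chromosome 8 run, had 1387, 1530.1, 2616 and 2330.2 CPM in 2224 and 306, 487 and 538 CPM in 2225 (2.14 ± 0.21, adjusted p = 8.88e-14). Fgfr3, a receptor of cartilage and epithelia, had 186, 135, 219 and 237 CPM against 9.999, 11.7 and 27.5 CPM (3.77 ± 0.39, adjusted p = 4.58e-13), and its mean was at most 12.98 CPM in the other 11 models. Fgfr4, a receptor of liver and muscle, differed by 3.17 ± 0.42 at a 2224 mean of 2.98 ± 1.56 CPM. The adaptor Gab1 had 46.03, 42.9, 60.4 and 63.1 CPM against 92.6, 115 and 126 CPM (-1.07 ± 0.17, adjusted p = 1.83e-07). Every 1 of these 4 genes kept its models apart, Gab1 in the opposite direction to the others. Fgfr2, a receptor of mammary epithelium, differed by 0.71 ± 0.35, adjusted p = 0.0883.

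Among 13 feedback and ETS genes, which respond to MAP kinase activity, 5 were higher in 2224 and 3 in 2225, or 1 without 2224 replicate 2, 3 or 4 (median 0.48). Dusp4, a nuclear MAP kinase phosphatase, had 252, 162, 259 and 282 CPM in 2224 and 25.5, 46.1 and 52.3 CPM in 2225 (2.42 ± 0.28, adjusted p = 4.2e-11), and Spry2, a Sprouty inhibitor, had 64.8, 48.6, 52.6 and 56.8 CPM against 16.4, 22.99 and 28.5 CPM (1.25 ± 0.16, adjusted p = 6.76e-10). Dusp5, a phosphatase of ERK, differed by 1.90 ± 0.25, and Etv5, an ETS factor downstream of Fgf, by 0.82 ± 0.18. Dusp6, the ERK phosphatase often read as a measure of Fgf signalling, went the other way, at 253, 314, 384 and 374 CPM against 342, 574 and 651 CPM (-0.72 ± 0.22, adjusted p = 0.00484), with overlap. The remaining readouts Etv4 (-0.24 ± 0.21, adjusted p = 0.376), Spry1 (0.16 ± 0.18, adjusted p = 0.495) and Spry4 (0.48 ± 0.25, adjusted p = 0.111) did not pass.

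Wnt ligands bind Frizzled and Lrp receptors and stabilise beta-catenin, which acts with Tcf and Lef factors on target genes such as Axin2, while R-spondins keep the receptors at the surface. Genes of this pathway were called in both directions. Wnt6, an epithelial ligand whose gene lies within the chromosome 1 run from Rnf25 to Slc4a3, had 10.7, 6.35, 2.73 and 6.64 CPM in 2224 and 181, 297 and 409.8 CPM in 2225 (-5.50 ± 0.67, adjusted p = 1.05e-10), and at most 71.03 CPM in any other model. Wnt5b, a ligand of the branch without beta-catenin, had 9.83, 13.8, 12.9 and 13.2 CPM against 25.9, 39.6 and 78.9 CPM (-1.70 ± 0.42, adjusted p = 0.000575), and its relative Wnt5a had 30.8, 11.03, 9.71 and 12.1 CPM against 2.496, 4.23 and 5.46 CPM (2.01 ± 0.37, adjusted p = 6.84e-06). The 3 ligands had no overlap, Wnt5a in the direction of 2224. Wnt7b, a ligand of lung and mammary ducts, differed by 2.29 ± 0.39 with 2224 replicate 1 inside the 2225 range. Altogether 8 of 18 tested ligands were higher in 2224 and 3 higher in 2225, and 5 of the 8 had under 1 CPM.

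Of 21 receptors and potentiators, 6 were higher in 2224 and 8 in 2225, or 5 without 2224 replicate 4. With all libraries the shares were 28.6% and 38.1%, beside 24.9% and 22.5% of all genes. Fzd5, a Frizzled receptor, had 40.2, 39.8, 51.6 and 51.3 CPM in 2224 and 177, 397 and 528 CPM in 2225 (-3.08 ± 0.31, adjusted p = 2.17e-13), and Fzd10, another, had 0.101, 1.08, 0.148 and 1.46 CPM against 22.9, 35.5 and 52.4 CPM (-5.65 ± 0.85, adjusted p = 5.59e-08). Fzd8, a further Frizzled, had 6.69, 8.95, 10.1 and 11.03 CPM against 0.944, 1.25 and 1.44 CPM (2.94 ± 0.23, adjusted p = 5.24e-18). Without 2224 replicate 4 the difference of Fzd10 was -6.28. Each of these receptors separated the models, Fzd8 with the higher level in 2224. Ror2, a receptor for Wnt5a, was higher in 2225 (-2.33 ± 0.50, adjusted p = 6.71e-05), and the coreceptor genes Ryk and Lrp5 were higher in 2224, by 1.01 ± 0.08 and 0.81 ± 0.14.

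Of 11 tested secreted inhibitors, 6 were higher in 2224 and 1, Dkk4, in 2225. Sfrp1, which binds Wnt ligands and lies in the chromosome 8 run, had 532, 834, 863 and 821 CPM in 2224 and 132, 160.1 and 207 CPM in 2225 (2.24 ± 0.36, adjusted p = 4e-07), a clear gap. Wif1, another Wnt-binding inhibitor, had 188, 46.96, 55.9 and 50.03 CPM against 14.01, 20.3 and 35.2 CPM (1.94 ± 0.61, adjusted p = 0.00639). Its call rested on 2224 replicate 1 and ended without it (1.19, adjusted p = 0.143). Tpbg, a membrane inhibitor of Wnt receptors, differed by 1.49 ± 0.28. With only replicates 1 to 4 of 2225, 2 inhibitors were called higher in 2224.

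Of 12 feedback and target genes of beta-catenin, 6 were higher in 2225 and 2 in 2224, with a median of -0.57. Nkd1, a feedback inhibitor of Dishevelled, had 7.65, 7.48, 6.75 and 9.12 CPM in 2224 and 164, 343 and 363 CPM in 2225 (-5.37 ± 0.59, adjusted p = 3.49e-12). Axin2, the scaffold of the destruction complex that Wnt signals induce, had 6.49, 15.7, 14.5 and 16.01 CPM against 43.01, 59.8 and 68.6 CPM (-2.16 ± 0.60, adjusted p = 0.00207), and Rnf43, the ligase that removes Frizzled receptors, had 25.2, 25.6, 25.2 and 30.4 CPM against 53.2, 66.2 and 74.05 CPM (-1.30 ± 0.17, adjusted p = 1.76e-09). In these 3 genes every 2225 library was higher than every 2224 library, and Lgr5, the R-spondin receptor of stem cells, followed them (-4.05 ± 0.74, adjusted p = 4.98e-06). Notum, a secreted enzyme that inactivates Wnt ligands, went the other way, at 1.67, 23.7, 25.02 and 17.98 CPM against 1.12, 2.89 and 6.37 CPM (2.54 ± 0.66, adjusted p = 0.000975), and so did Nkd2, a relative of Nkd1, at 185, 567, 785 and 587 CPM against 182, 196 and 258 CPM (1.39 ± 0.41, adjusted p = 0.00411). Both overlapped through replicate 1 of 2224. Neither Lef1 (1.06 ± 0.61, adjusted p = 0.145) nor Sp5 (-0.59 ± 0.67, adjusted p = 0.497) was called. The letters CTTTGAT, a form of the Tcf site, were found on either strand in the promoter of 1 (Sp5) of the 8 target genes that matched RefSeq, 12.5%, and in 4.29% of all genes with a promoter.

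Within the intracellular core, 7 of 13 genes were higher in 2224 and 2 in 2225. Tcf7l2, a Tcf factor, had 33.3, 56.3, 62.5 and 63.7 CPM in 2224 and 9.97, 12.2 and 15.7 CPM in 2225 (2.12 ± 0.15, adjusted p = 7.91e-20), the widest difference of the core, and the models did not overlap. Apc, the tumour suppressor of the destruction complex, differed by 0.77 ± 0.16, and Dvl2, a Dishevelled protein, by -0.87 ± 0.12 in the direction of 2225. Ctnnb1, beta-catenin itself, had 1202, 817, 984 and 1122 CPM against 766, 965 and 1043 CPM (0.14 ± 0.15, adjusted p = 0.47).

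**Figure D3:**
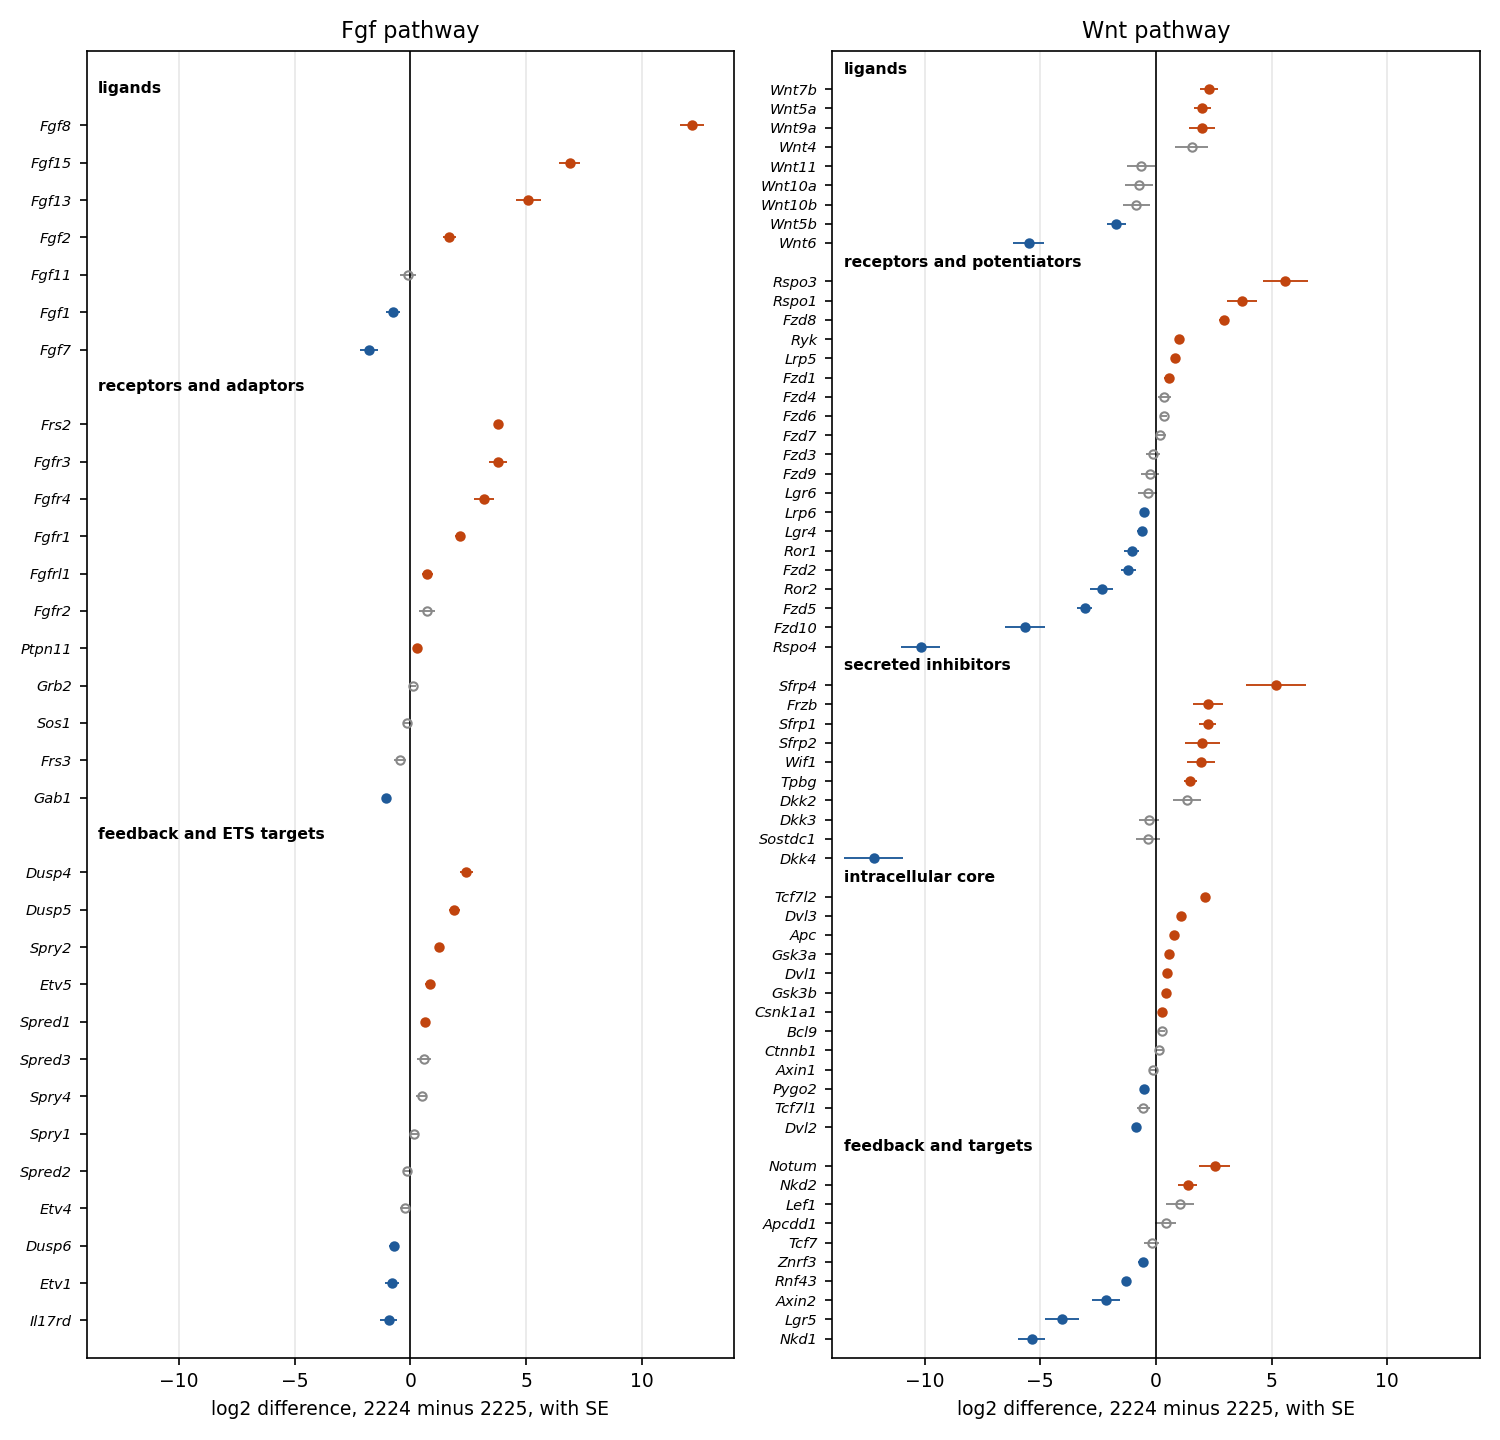
Log2 difference between 2224 and 2225 (± SE) of the Fgf and Wnt pathway genes with a mean of at least 1 CPM in either model, grouped by role; filled points were called and open points were not. Fgf8, Fgf15 and Fgfr3 lie far to the side of 2224 and Wnt6, Rspo4, Fzd10 and Nkd1 far to the side of 2225, and Dkk4, with no count in 2224, is drawn at its fitted value, which is no bound.

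Other signalling lists were called in both directions too, as were all tested genes, at 24.9% higher in 2224 and 22.5% higher in 2225. ERBB genes, the ligands and receptors of the epidermal growth factor family, were called in 11 of 14 cases, 8 of them higher in 2224. Hbegf, a heparin-binding ligand, had 19.3, 34.3, 51.9 and 34.3 CPM in 2224 and 6.03, 7.75 and 9.83 CPM in 2225 (2.15 ± 0.29, adjusted p = 1.74e-09). Erbb3, a receptor that signals through its partners, had 81.2, 68.6, 109 and 108 CPM against 332, 390.4 and 419 CPM (-2.06 ± 0.23, adjusted p = 5.57e-12), and Tgfa, another ligand, had 70.9, 31.1, 43.4 and 46.8 CPM against 165, 196 and 228 CPM (-2.03 ± 0.35, adjusted p = 1.11e-06). The 3 genes did not overlap, with Hbegf higher in 2224 and the others higher in 2225. Of 27 BMP and TGF-beta genes, 12 were higher in 2224 and 2 in 2225, or 1 without 2224 replicate 2, 3 or 4. Those higher in 2224 include Tgfb3, a ligand of involution and palate closure (1.29 ± 0.21), its receptor gene Tgfbr2 (0.97 ± 0.17), and Id4, an inhibitor of helix-loop-helix factors in basal cells (1.46 ± 0.36). Notch genes numbered 3 higher in 2224 and 5 higher in 2225 of 16. Notch3, a receptor of luminal progenitors and smooth muscle, had 103, 116, 150.3 and 162 CPM against 246, 329.8 and 369.9 CPM (-1.27 ± 0.25, adjusted p = 1.86e-05), and the target gene Hey1 had 28.2, 27.1, 33.3 and 48.1 CPM against 5.92, 9.47 and 17.9 CPM (1.73 ± 0.33, adjusted p = 1.2e-05). The target Hes1 did not pass (0.01 ± 0.22, adjusted p = 0.99). Of 14 Hedgehog genes, 6 were higher in 2224, or 3 with only replicates 1 to 4 of 2225, and 1 was higher in 2225. The 6 include the coreceptor gene Gas1 (2.04 ± 0.32) and, at low levels, Shh, Dhh and Gli1, with 2224 means of 0.103, 0.358 and 0.559 CPM. The target Ptch1 did not pass (0.34 ± 0.17, adjusted p = 0.0852).

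The labelled tissue was checked by mammary epithelial genes. In a bulk library fewer cells of a type and less RNA per cell cannot be told apart, which holds for all marker genes below. Trp63, a factor that defines basal epithelium, had 108, 87.3, 103 and 104 CPM in 2224 and 81.6, 110.1 and 128 CPM in 2225 (-0.09 ± 0.47, adjusted p = 0.906), and Epcam, an epithelial adhesion gene, differed by -0.45 ± 0.20, adjusted p = 0.0632. Krt5, a basal keratin, had 76.9, 158, 108 and 326 CPM against 162, 273 and 739 CPM (-1.15 ± 0.95, adjusted p = 0.335), with wide overlap. Of 21 basal genes 7 were higher in 2224 and 2 in 2225, or 1 without 2224 replicate 1 or 2. Acta2, smooth muscle actin of the myoepithelium, had 629.7, 396, 360.1 and 501 CPM against 70.5, 86.1 and 122 CPM (2.32 ± 0.35, adjusted p = 6.9e-08), and Oxtr, the oxytocin receptor, had 46.4, 22.3, 27.2 and 26.4 CPM against 0.891, 4.36 and 11.3 CPM (2.58 ± 0.57, adjusted p = 0.000135). Cdh3, P-cadherin, was higher in 2225, at 41.3, 42.8, 45.2 and 55.6 CPM against 169, 209.6 and 224 CPM (-2.13 ± 0.42, adjusted p = 2.13e-05). None of the 3 overlapped.

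Luminal genes moved both ways, 6 of 21 higher in 2224 (28.6%) and 5 higher in 2225 (23.8%). These shares were near those over all genes, 24.9% and 22.5%. Gata3, the transcription factor that maintains luminal cells, had 21.9, 35.7, 34.9 and 40.2 CPM in 2224 and 0.955, 1.25 and 2.74 CPM in 2225 (4.40 ± 0.32, adjusted p = 8.97e-20). Prlr, the prolactin receptor, had 23.9996, 18.6, 17.3 and 17.9 CPM against 0.565, 0.734 and 1.55 CPM (4.49 ± 0.34, adjusted p = 1.02e-18), and Esr1, the oestrogen receptor, differed by 2.86 ± 0.31 at a 2224 mean of 3.27 ± 0.674 CPM. On the 2225 side, Spdef, a factor of secretory cells, had 0.0505, 0.284, 0.3203 and 0.469 CPM against 10.1, 13.3 and 27.9 CPM (-5.85 ± 0.86, adjusted p = 2.87e-08), and Krt8, a luminal keratin, had 318, 336, 412 and 484 CPM against 674, 921 and 1343 CPM (-1.35 ± 0.26, adjusted p = 1.26e-05). All 5 genes kept the models apart. Foxa1 (0.38 ± 0.63, adjusted p = 0.655), a partner of the oestrogen receptor, and Elf5 (0.38 ± 0.38, adjusted p = 0.423), a factor of alveolar progenitors, did not pass.

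Of 14 milk protein genes, 4 were higher in 2224 and 1, Lalba, the gene of alpha-lactalbumin, was higher in 2225. Their shares were 28.6% and 7.14%, beside 24.9% and 22.5% of all genes. Lalba had 0.328, 0.105, 0.0862 and 0.1899 CPM against 0.0524, 0.398 and 2.29 CPM (-2.44 ± 1.0, adjusted p = 0.0386), with overlap, and its call ended without 2224 replicate 2, 3 or 4 or 2225 replicate 1, 7 or 8 (-2.24, adjusted p = 0.104 without 2224 replicate 2). Csn3, kappa casein, had 576, 711, 603 and 918 CPM in 2224 and 1.68, 3.04 and 7.57 CPM in 2225 (7.72 ± 0.54, adjusted p = 1.15e-20), and Xdh, which shapes milk fat droplets, had 41.1, 33.7, 28.8 and 33.1 CPM against 2.73, 5.71 and 8.49 CPM (2.65 ± 0.38, adjusted p = 1.23e-08). The caseins and whey protein most typical of lactation, Csn2 (1.05 ± 0.77, adjusted p = 0.27) and Wap (2.37 ± 1.68, adjusted p = 0.251), were not called. Of 20 junction genes, 7 were higher in 2224 (35%) and 4 in 2225 (20%). Cldn10, a claudin that forms ion channels, had 18.01, 17.96, 43.4 and 53.6 CPM against 0.696, 2.59 and 4.12 CPM (3.71 ± 0.57, adjusted p = 1.14e-07), a difference in the opposite direction to Cldn6. Cdh1, E-cadherin, had 158, 256, 295 and 286 CPM against 321, 374 and 521 CPM (-0.66 ± 0.20, adjusted p = 0.00489), and its call ended without 2224 replicate 1 (-0.50, adjusted p = 0.0595).

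Genes of the epithelial-mesenchymal transition were higher in 2224 for 11 of 21 members and in 2225 for 2, or 1 without 2224 replicate 1 or 3. Cdh2, N-cadherin, had 42.3, 22.5, 23.4 and 23.3 CPM in 2224 and 1.26, 1.95 and 2.79 CPM in 2225 (3.84 ± 0.36, adjusted p = 1.3e-14), and Ncam1, a neural adhesion gene, had 77.7, 19.9, 23.8 and 21.2 CPM against 0.931, 1.77 and 4.61 CPM (4.05 ± 0.52, adjusted p = 6.57e-10). Both were apart in all libraries, and without 2224 replicate 1 the difference of Ncam1 was 3.33. Fn1, fibronectin, had 853, 1139, 1736 and 1109 CPM against 155, 275 and 525 CPM (1.96 ± 0.49, adjusted p = 0.000596), but was not called with only replicates 1 to 4 of 2225 (1.47, adjusted p = 0.0691). Vim, vimentin, the filament of mesenchymal cells, had 347, 443, 396 and 426 CPM against 591, 712 and 801 CPM (-0.81 ± 0.30, adjusted p = 0.0227), so it was lower in 2224, and its call ended without 2224 replicate 1 (-0.75, adjusted p = 0.0617) or replicate 3 (-0.80, adjusted p = 0.0531). Summed markers of fibroblasts, which also carry Fn1 and Vim, ran from 2689 to 7447 CPM in 2224 and from 1428 to 5042 CPM in 2225, and their part in these values was not tested.

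Hox genes, which record position along the body axis, were tested for 34 of 37 members. In 2225 11 were higher and in 2224 6, or 2 without 2224 replicate 2 and 3 without replicate 3 or 4. With all libraries these were 32.4% and 17.6%, beside 22.5% and 24.9% of all genes, and the median difference of the list was 0.135. Hoxb13, a Hox gene of tail and prostate, had 0, 0.0315, 0.0246 and 0.0253 CPM in 2224 and 2.17, 4.38 and 8.31 CPM in 2225 (-7.60 ± 0.77, adjusted p = 9.01e-12), and Hoxb9, a thoracic Hox gene, had 0.657, 0.494, 0.431 and 0.684 CPM against 3.84, 7.26 and 9.64 CPM (-3.63 ± 0.64, adjusted p = 2.43e-06). Every 2225 library exceeded every 2224 library for both genes. Hoxd10, a Hox gene of limb and trunk, differed by -3.82 ± 0.87 at low levels, and by -4.44 without 2224 replicate 4. Among the 6 higher in 2224 the widest difference was 4.50 ± 0.52 (adjusted p = 2.34e-10). That gene had a 2224 mean of 0.658 CPM, and its libraries overlapped.

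**Figure D4:**
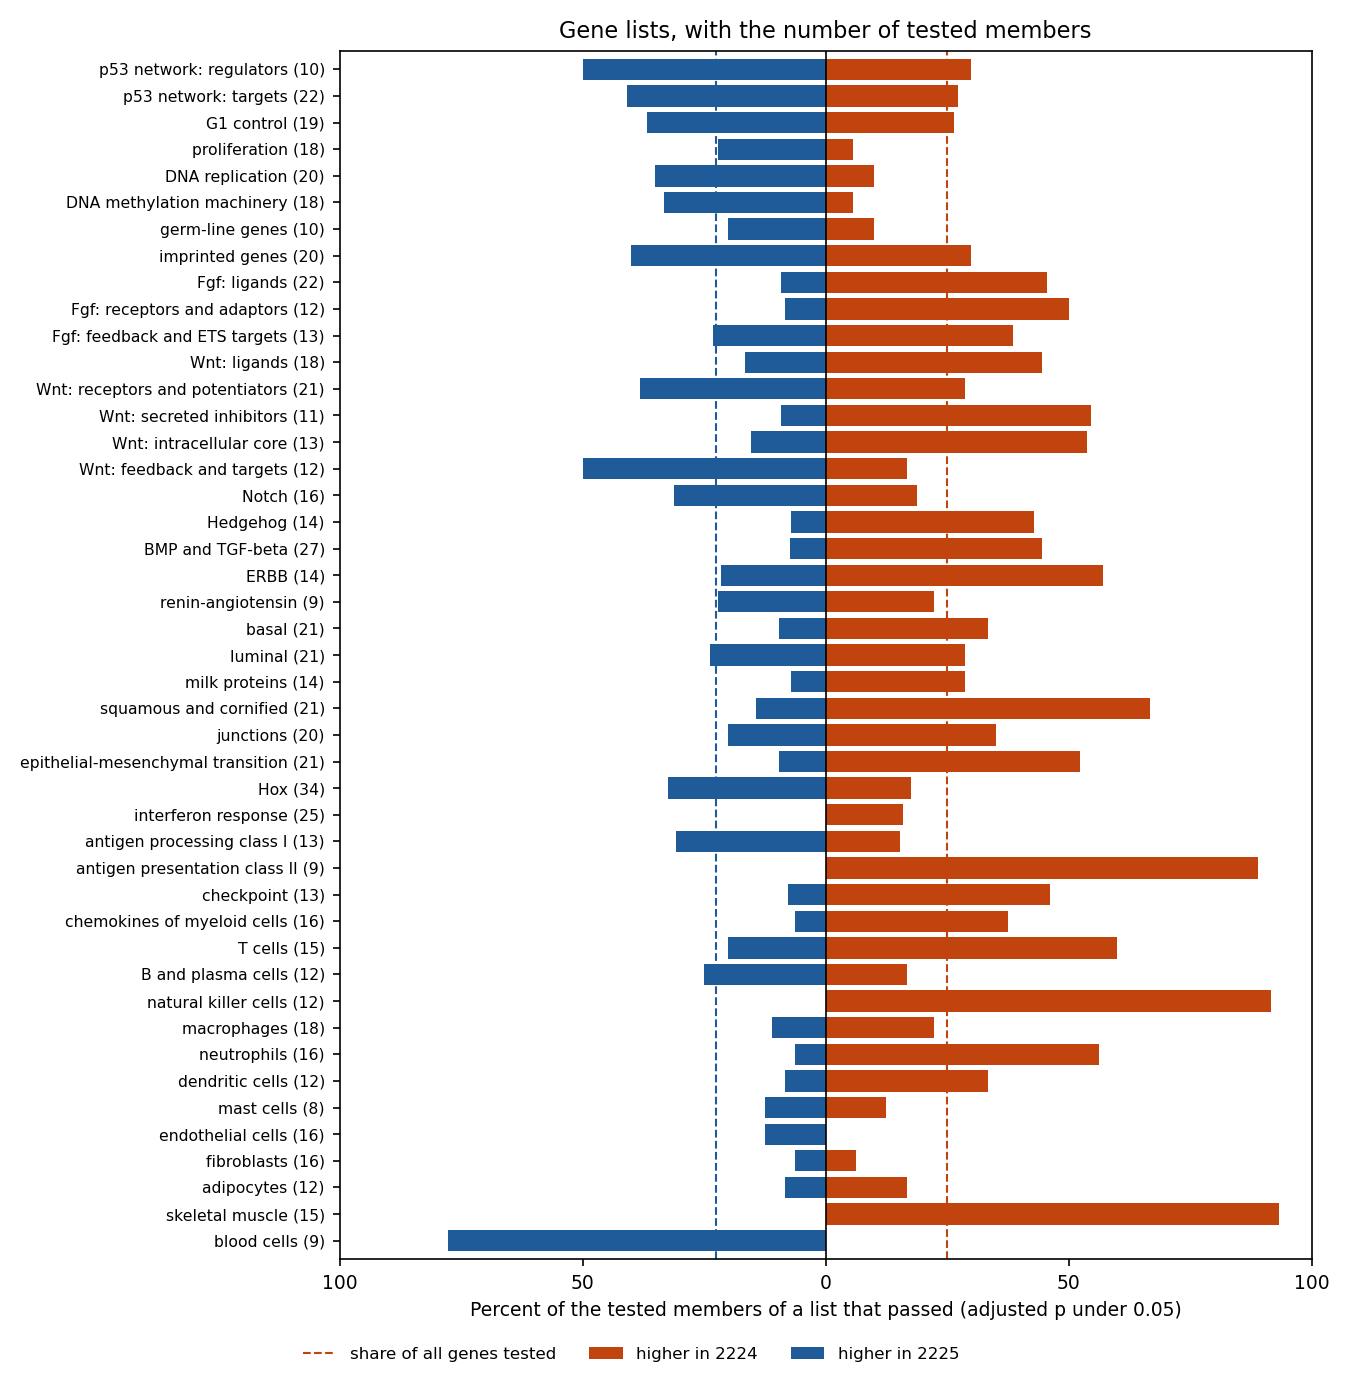
Percent of the tested members of each gene list that were called higher in 2224 (bars to the right) and higher in 2225 (bars to the left), adjusted p under 0.05, with dashed lines at the shares over all 22847 genes, 24.9% and 22.5%; the lists of p53 regulators and of the methylation machinery include Mdm2 and Dnmt3a, which chose the pair. Skeletal muscle, natural killer cell and class II lists extend furthest to the 2224 side and blood cell genes to the 2225 side, and the counts of several of these lists rest on part of the libraries.

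Libraries within 2224 differed in RNA of skin appendages and of muscle. Tchh, trichohyalin of the hair follicle, had 2.17, 112, 16.7 and 80.4 CPM in 2224 and 0.157, 0.604 and 1.24 CPM in 2225 (6.27 ± 0.92, adjusted p = 2.74e-08), and Krt27, an inner root sheath keratin, had 1.31, 31.96, 5.26 and 21.3 CPM against 0.00999, 0.0408 and 0.2096 CPM (8.34 ± 1.18, adjusted p = 1.3e-08). Every 2224 library was above 2225, but replicates 2 and 4 were far above replicate 1, and without replicate 2 the differences were 5.60 and 7.66. In the list of squamous and cornified genes 14 of 21 tested members were higher in 2224 and 3 in 2225, or 1 without 2224 replicate 2, with a single called member, Ivl, a precursor of the cornified envelope, free of overlap (6.78 ± 1.02, or 6.02 without 2224 replicate 4). Without 2224 replicate 4, 5 were higher in 2224. Krt16, a keratin of stressed epidermis, had 0.0505, 0.8198, 0.345 and 114 CPM against 0, 0.09903 and 0.3298 CPM (7.81 ± 1.0, adjusted p = 6.84e-10), and was not called without replicate 4 (1.76, adjusted p = 0.134). The summed list measured 112, 323, 258 and 1139 CPM in 2224 and 156 to 233 CPM in 2225, so replicate 1 lay below and replicate 4 well above all libraries of 2225.

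Skeletal muscle genes were called higher in 2224 for 14 of 15 members, each with some overlap between the models, or for 7 without 2224 replicate 1 and 6 without replicate 3. Myh4, the myosin of fast fibres, had 354, 39.9, 278 and 5.76 CPM in 2224 and 0.0763, 0.405 and 6.18 CPM in 2225 (6.85 ± 2.00, adjusted p = 0.00346), and with only replicates 2 and 4 of 2224 it was not called (3.96, adjusted p = 0.147). Without 2224 replicate 1 its difference was 6.20, and without 2225 replicate 10 it was 7.54. Acta1, skeletal actin, had 468, 124, 421 and 16.2 CPM against 0.0324, 5.38 and 31.8 CPM (4.61 ± 1.81, adjusted p = 0.0298), while its call ended without replicate 1 (4.15, adjusted p = 0.0655) or replicate 3 (4.26, adjusted p = 0.0622). Summed over the list, replicates 1 and 3 stood at 1853 and 1541 CPM and replicates 2 and 4 at 396 and 58.8 CPM, against 5.34 to 136 CPM in 2225. With only replicates 2 and 4, 0 of the 15 genes were called by edgeR and 0 had an unadjusted p under 0.05, whereas with all libraries DESeq2 called 13 and limma 10. Myh7, the slow fibre myosin, which was 1 of the 12 widest differences on the 2224 side, had 23.4, 0.137, 12.3 and 0.241 CPM against 0, 0 and 0.105 CPM (9.89 ± 1.98, adjusted p = 2.59e-05) and followed the same libraries (4.32, adjusted p = 0.163 with only replicates 2 and 4). Its difference was 8.79 without 2224 replicate 1 and 10.62 without 2225 replicate 4.

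**Figure D5:**
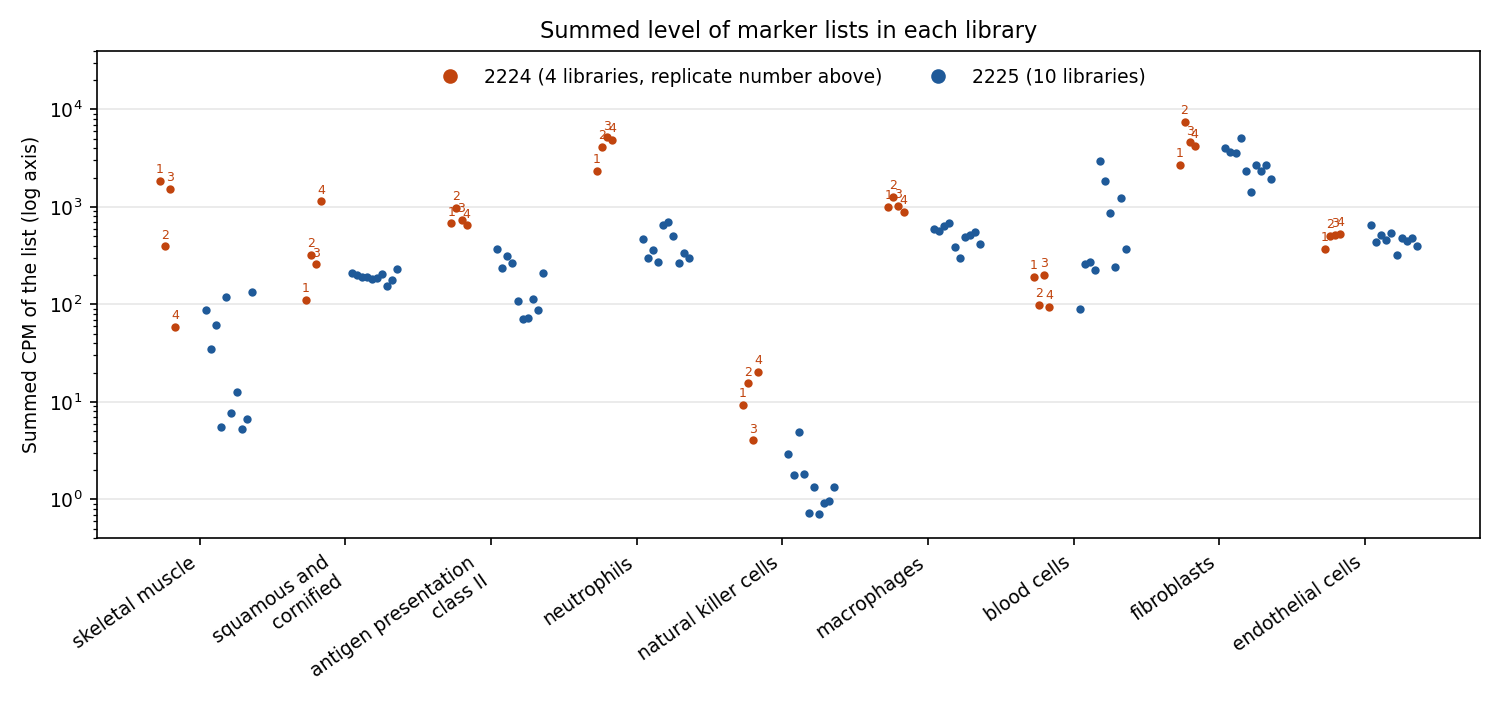
Summed CPM of 9 marker lists in each library of 2224, with its replicate number above the point, and of 2225. Skeletal muscle genes are high in 2224 replicates 1 and 3 and cornified genes in replicate 4, while class II genes and neutrophil genes are higher in all 4 libraries of 2224 than in the 10 of 2225.

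Immune genes were compared with the libraries of 2225 in view, since these differed among themselves. The 10 libraries fell into replicates 1 to 4 and 5 to 10 for class II genes, whose sum was 238 to 369 CPM in the former and 71.0 to 211 CPM in the latter, and the labels name no batch. All 9 genes of class II presentation, which display antigen to helper T cells, passed the filter on low counts, and 8 were called, each higher in 2224. With only replicates 1 to 4 of 2225, 1 was called. Ciita, the master regulator of class II genes, had 7.33, 6.46, 5.901 and 3.65 CPM in 2224 and 0.1799, 0.746 and 1.22 CPM in 2225 (3.17 ± 0.53, adjusted p = 7.6e-07). It stayed called with only replicates 1 to 4 (2.56, adjusted p = 0.00312). Cd74, the invariant chain, had 279.5, 453, 356 and 316 CPM against 18.8, 58.3 and 163 CPM (2.28 ± 0.65, adjusted p = 0.00251), and within 2225 it ran from 101 to 163 CPM in replicates 1 to 4 and 18.8 to 72.96 CPM in replicates 5 to 10. H2-Aa, a class II alpha chain, had 109.6, 109, 68.3 and 62.4 CPM against 4.598, 17.4 and 45.002 CPM (2.08 ± 0.69, adjusted p = 0.00988). Both genes were higher in each 2224 library than in any of 2225, but with only replicates 1 to 4 of 2225 the differences were 1.47, adjusted p = 0.165 for Cd74 and 1.25, adjusted p = 0.28 for H2-Aa.

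Neutrophil genes were higher in 2224 for 9 of 16 members and in 2225 for 1. Lcn2, an iron-binding protein made by neutrophils and by epithelium, had 2259, 4016, 5079.5 and 4699.8 CPM in 2224 and 224, 281 and 657 CPM in 2225 (3.52 ± 0.31, adjusted p = 7.7e-16). Csf3r, the receptor for the growth factor of granulocytes, had 24.2, 27.4, 41.97 and 36.9 CPM against 1.45, 3.11 and 5.199 CPM (3.33 ± 0.36, adjusted p = 1.78e-12), and Cxcr2, the receptor by which neutrophils follow chemokines, had 7.55, 7.504, 8.34 and 10.6 CPM against 0.0512, 0.605 and 0.839 CPM (3.97 ± 0.47, adjusted p = 4.28e-11). In all 3 the models were apart. S100a8, a major protein of the neutrophil cytosol, had 11.8, 6.19, 7.86 and 13.2 CPM against 0.419, 1.45 and 5.32 CPM (2.23 ± 0.52, adjusted p = 0.000248), and was not called with only replicates 2 to 4 of 2224 and 5 and 6 of 2225 (1.12, adjusted p = 0.338). Ltf, lactoferrin, which the mammary gland also makes, was higher in 2225, at 5.25, 6.24, 4.48 and 6.205 CPM against 27.3, 51.3 and 74.7 CPM (-3.20 ± 0.93, adjusted p = 0.0032). The summed list, most of it Lcn2, was 2352 to 5178 CPM in 2224 and 268 to 700.2 CPM in 2225. Ly6g, the surface marker of mouse neutrophils, stayed at or under 0.177 CPM in 2224, and the granule genes Elane and Mpo were near 0. Of other granule genes, Camp, the gene of the cathelicidin peptide, had 0.783, 1.05, 0.776 and 0.5698 CPM against 0, 0 and 0.03997 CPM (6.13 ± 0.96, adjusted p = 1.49e-07), or 7.06 on the log2 scale without 2225 replicate 7. Ngp, the neutrophilic granule protein, had 2.602, 0.526, 0.4804 and 0.506 CPM against 0, 0.0294 and 0.187 CPM (3.99 ± 0.98, adjusted p = 0.00053), or 2.97 without 2224 replicate 1, and was not called with only replicates 2 to 4 of 2224 and 5 and 6 of 2225 (2.00, adjusted p = 0.393). Neither overlapped.

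Chemokines that draw myeloid cells were called in 7 of 16 cases, 6 of them higher in 2224 and 1 in 2225, or 2 without 2225 replicate 1, 2 or 8. Cxcl12, the ligand of Cxcr4 made mainly by stroma, had 343, 95.2, 139.7 and 117 CPM in 2224 and 0.414, 1.31 and 6.27 CPM in 2225 (6.10 ± 0.62, adjusted p = 2.07e-13). It ran within 2225 from 4.19 to 6.27 CPM in replicates 1 to 4 and 0.414 to 1.33 CPM in replicates 5 to 10, all below the lowest library of 2224. Cxcl1, a neutrophil attractant, had 27.2, 67.5, 64.2 and 46.02 CPM against 1.31, 7.57 and 16.7 CPM (2.80 ± 0.35, adjusted p = 3.27e-10), again without overlap.

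Of 18 macrophage genes 4 were higher in 2224, or 2 without 2224 replicate 1 or 2. Another 2 were higher in 2225, calls that both ended without 2224 replicate 1, 2 or 4. The shares, 22.2% and 11.1%, were below those of all genes, 24.9% and 22.5%. Itgam, the integrin CD11b of myeloid cells, had 18.8, 25.6, 23.2 and 21.5 CPM in 2224 and 4.85, 8.04 and 13.6 CPM in 2225 (1.44 ± 0.38, adjusted p = 0.00135), and 1.20, adjusted p = 0.0547 with only replicates 1 to 4 of 2225. Csf1r, the receptor that keeps macrophages alive, had 71.4, 88.3, 65.97 and 53.3 CPM against 16.03, 35.7 and 50.1 CPM (1.05 ± 0.40, adjusted p = 0.0267). With the same 4 libraries of 2225 its difference was 0.58, adjusted p = 0.391, and its call also ended without 2224 replicate 1 (1.03, adjusted p = 0.0503) or replicate 2 (0.91, adjusted p = 0.0924). Lyz2, the lysozyme of macrophages, lies within the chromosome 10 run and had 532, 449, 433 and 413 CPM against 64.8, 156 and 174 CPM (1.69 ± 0.46, adjusted p = 0.00178). C1qa (0.85 ± 0.47, adjusted p = 0.134) and Cd68 (0.28 ± 0.37, adjusted p = 0.561), genes of tissue macrophages, did not pass. The macrophage sum was 893 to 1259 CPM in 2224 and 299.6 to 681 CPM in 2225, of which Lyz2 made up 35.6% to 53.3% in 2224. Without Lyz2 the sums overlapped, with 467 to 810.3 CPM in 2224 and 235 to 519.5 CPM in 2225. Of 12 dendritic cell genes, 4 were higher in 2224 (33.3%) and 1 in 2225 (8.33%). Itgax, the integrin CD11c, had 29.6, 39.6, 42.02 and 36.9 CPM against 3.12, 6.27 and 11.8 CPM (2.52 ± 0.33, adjusted p = 1.06e-09).

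Of 12 natural killer cell genes 11 were higher in 2224, or 5 with only replicates 1 to 4 of 2225 and 4 with only replicates 1 and 3 of 2224, and their sum was 4.04 to 20.5 CPM in 2224 and 0.709 to 4.94 CPM in 2225. Gzmb, the granule protease of killer cells, had 0.632, 2.02, 0.394 and 3.98 CPM in 2224 and 0, 0.0461 and 0.339 CPM in 2225 (4.07 ± 0.85, adjusted p = 5.23e-05), or 3.29 on the log2 scale without 2224 replicate 4, and it was not called with only replicates 1 and 3 of 2224 (2.28, adjusted p = 0.0919). Of 15 T cell genes 9 were higher in 2224 and 3 in 2225, or 2 and 1 with only replicates 1 to 4 of 2225. The 3 became 1 without 2224 replicate 2, 3 or 4 or 2225 replicate 1. The summed T cell list went the other way, with 20.8 to 29.8 CPM in 2224 and 27.7 to 37.5 CPM in 2225, and more than 51.5% of it in each library was Lck, a kinase of the T cell receptor. Lck, named after its values were seen, had 11.8, 18.7, 11.7 and 13.4 CPM against 16.7, 21.6 and 28.8 CPM (-0.67 ± 0.28, adjusted p = 0.046), with overlap, and its call ended without 2224 replicate 1, 3 or 4 or 2225 replicate 1, 3 or 10 (-0.59, adjusted p = 0.131 without 2224 replicate 3). Cd3e, a chain of the T cell receptor complex, had 0.606, 0.883, 0.665 and 0.772 CPM against 0.0171, 0.0626 and 0.419 CPM (2.70 ± 0.77, adjusted p = 0.0028), and 1.55, adjusted p = 0.227 with those libraries. Neither Gzmb nor Cd3e overlapped between the models, and Cd4, the coreceptor of helper T cells, was higher in 2225, at 3.01, 2.55, 2.71 and 2.697 CPM against 4.22, 5.62 and 11.9 CPM (-1.17 ± 0.43, adjusted p = 0.0202), a call that ended without 2224 replicate 2 (-1.14, adjusted p = 0.0525).

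Of 25 interferon response genes 4 were called, each higher in 2224, with a median of 0.45 over the 25. The share higher in 2224, 16%, lay below the 24.9% of all genes, and 0% were higher in 2225, beside 22.5%. Ifih1, a cytosolic sensor of viral RNA, had 16.2, 15.1, 13.9 and 13.9 CPM in 2224 and 2.41, 4.13 and 6.71 CPM in 2225 (1.76 ± 0.28, adjusted p = 2.09e-07), and Ifit2, an interferon-induced inhibitor of translation, had 11.1, 6.21, 5.396 and 4.82 CPM against 0.861, 2.28 and 3.33 CPM (1.72 ± 0.40, adjusted p = 0.000228). Both were free of overlap. Ifit1, its relative, had 2.78, 3.68, 2.97 and 3.305 CPM against 0.512, 0.849 and 2.204 CPM (1.61 ± 0.55, adjusted p = 0.0116), and was not called with only replicates 1 to 4 of 2225 (1.15, adjusted p = 0.218). Isg15 (-0.28 ± 0.45, adjusted p = 0.645), a ubiquitin-like modifier, did not pass.

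Promoters of 2 of the called interferon genes are shown because they hold the letters of the interferon-stimulated response element (GAAA, any 2 bases and GAAA, or the reverse complement), in capitals (RefSeq, GRCm38.p6). That of Ifit1 is chr19:34640639-34640938 on the plus strand and that of Ifih1 chr2:62646206-62646505 on the minus strand, each written in the direction of its gene. Of 25 listed genes 18 matched, and 11 of these (61.1%) held the letters on either strand, against 3.99% of all genes with a promoter. Of these 11 genes, 2, Ifit1 and Ifih1, were called.
Ifit1: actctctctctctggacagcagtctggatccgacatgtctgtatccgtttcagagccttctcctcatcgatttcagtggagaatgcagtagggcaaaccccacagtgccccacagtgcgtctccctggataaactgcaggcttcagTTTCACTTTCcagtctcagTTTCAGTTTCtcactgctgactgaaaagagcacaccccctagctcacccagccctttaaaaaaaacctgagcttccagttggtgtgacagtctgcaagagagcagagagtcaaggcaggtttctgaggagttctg
Ifih1: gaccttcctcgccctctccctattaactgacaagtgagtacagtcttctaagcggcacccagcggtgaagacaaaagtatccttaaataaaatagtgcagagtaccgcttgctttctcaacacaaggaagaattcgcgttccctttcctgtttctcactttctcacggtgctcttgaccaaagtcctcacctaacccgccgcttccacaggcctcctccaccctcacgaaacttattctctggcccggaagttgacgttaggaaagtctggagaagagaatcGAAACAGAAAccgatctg

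Genes of class I presentation, which show peptides to cytotoxic T cells, were called in 6 of 13 cases. Of these, 2 were higher in 2224, or 1 without 2224 replicate 2 or 3, and 4 in 2225. As shares of the 13 these were 15.4% and 30.8%, beside 24.9% and 22.5% of all genes. Erap1, the aminopeptidase that trims the peptides, had 75.3, 59.4, 58.9 and 51.7 CPM in 2224 and 21.3, 27.2 and 33.3 CPM in 2225 (1.17 ± 0.15, adjusted p = 2.48e-10). Tap2, a subunit of the peptide transporter, had 24.3, 25.9, 22.99 and 31.5 CPM against 49.3, 61.9 and 69.1 CPM (-1.22 ± 0.26, adjusted p = 6.24e-05), apart in the opposite direction, and Nlrc5, the activator of class I genes, differed by -1.40 ± 0.34. B2m (-0.02 ± 0.34, adjusted p = 0.978), the light chain, did not pass. Of 13 checkpoint genes 6 were higher in 2224 and 1 in 2225. Vsir, a checkpoint protein of myeloid cells, had 49.5, 67.01, 119.7 and 95.6 CPM against 12.3, 22.1 and 30.7 CPM (1.90 ± 0.26, adjusted p = 4.23e-09), and Cd274, the ligand PD-L1, differed by 0.87 ± 0.46, adjusted p = 0.117.

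Endothelial genes were called in 2 of 16 cases, both higher in 2225, or 1 without 2224 replicate 1, with sums of 373 to 531 CPM in 2224 and 324 to 660 CPM in 2225. The shares, 0% higher in 2224 and 12.5% higher in 2225, were below the 24.9% and 22.5% of all genes. Fibroblast genes were called in 2 of 16 cases, 1 each way (6.25%). The 1 higher in 2224 became 3 without 2224 replicate 1, 2 without 2225 replicate 1 and 4 without 2225 replicate 4. Col1a1, the main fibrillar collagen, differed by 1.19 ± 0.55, adjusted p = 0.0666. Fbln1, a fibulin of matrix fibres, was higher in 2225, at 73.7, 61.2, 46.9 and 58.8 CPM against 173, 219.8 and 292 CPM (-1.86 ± 0.56, adjusted p = 0.0042). Blood cell genes were higher in 2225 for 7 of 9 members, each with overlap, or for 4 without 2224 replicate 2 and 2 without replicate 4. Hbb-bs, a beta globin, had 81.5, 39.1, 79.1 and 36.3 CPM against 44.01, 149 and 1362 CPM (-2.69 ± 0.90, adjusted p = 0.011), and within 2225 it ran from 44.01 to 112 CPM in replicates 1 to 4 and 107 to 1362 CPM in replicates 5 to 10. With only replicates 1 to 4 of 2225 its difference was -0.58, adjusted p = 0.645, and 0 of the 9 genes were called by edgeR, with 1 at an unadjusted p under 0.05. With all libraries DESeq2 called 8 and limma 4.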

How the data were processed

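RNA of individual mouse mammary tumours was sequenced as TruSeq mRNA libraries from RNeasy Mini extracts, per the labels' protocols. The authors deposited expected counts, that is estimated counts per gene, for 47480 genes. Whole numbers made up 85.5% of them and zeros 52.7%, and all were rounded here. STAR, SAMtools, Picard and Salmon are named without version, and mm10 as build, per the submitters' processing notes. The authors also deposited a normalized signal, which by its values is a count over the 75th percentile of the counts above 0 in that library, scaled to 1000, and 1 where the count is 0. It served only as an alternative. All columns matched the labels.

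Genes with low counts were removed by model with filterByExpr (a minimum count of 10 and a minimum total of 15), which left 22847 genes. The libraries were scaled by TMM, and edgeR 4.0.16 in R 4.3.3 fitted a mean for each of the 13 models by robust quasi-likelihood. All 82 libraries entered, so that the spread was estimated over every model with 69 residual degrees of freedom. The contrast was 2224 minus 2225, with Benjamini-Hochberg adjusted p under 0.05 over all genes as a call, and each SE was taken as the difference over the root of its F value. Levels are CPM on TMM-scaled library sizes. Library totals were compared by an exact permutation test.

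The pair of models, the 45 gene lists and the members named were chosen with earlier results of these data known. Named genes were taken from the 12 widest differences each way (mean of at least 5 CPM in the higher model, no overlap, no predicted genes or pseudogenes), from up to 6 called members of each list and its defining genes, and from the chromosome runs. Positions are from GENCODE M21 on mm10, and promoters from RefSeq on GRCm38.p6, 250 bases before to 50 after a start. Counts and SEs were recomputed with 24 other settings, DESeq2 1.42.0 and limma 3.58.1 among them. DNA methylation, copy number and strand of reads were not analysed here.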

Additional observations from a re-analysis of the deposited data

Results flagged for a closer look

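Single libraries that stood far from the rest of their model, by Dixon's test of the gap to the nearest library against the whole range (95% level), were sought for the 219 genes named here and for the library totals. Chance flags about 1 in 20 groups, and 40 values stood apart, 22 in 2224 and 18 in 2225. For each, the level of the library and that of the library nearest to it in the same model are given.

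In 2224, replicate 1 held 15 of the 22 values. It was the highest library of its model for Cdh2 at 42.3 CPM (next 23.4), Ly6g at 0.177 CPM (next 0.0246), Ncam1 at 77.7 CPM (next 23.8), Ngp at 2.602 CPM (next 0.526), Otor at 0.0758 CPM (next 0.0123), Uhmk1 at 153 CPM (next 99.8), Wif1 at 188 CPM (next 55.9) and Wnt5a at 30.8 CPM (next 12.1). It was the lowest library for Axin2 at 6.49 CPM (next 14.5), B2m at 174 CPM (next 303), Ccnd1 at 629.5 CPM (next 977), Dtnb at 30.6 CPM (next 44.1), Fkbp6 at 6.62 CPM (next 21.3), Lipk at 4.45 CPM (next 9.65) and Sfrp1 at 532 CPM (next 821).

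Replicate 2 of 2224 was the highest library of its model for Noxa1 at 0.02102 CPM (next 0), S100g at 0.02102 CPM (next 0) and Uhrf1 at 226 CPM (next 175). It was the lowest library for Dnmt3a at 63.8 CPM (next 72.6) and Ptch1 at 38.2 CPM (next 50.6). Replicate 4 of 2224 was the highest library of its model for Krt16 at 114 CPM (next 0.8198) and Rnf43 at 30.4 CPM (next 25.6).

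In 2225, replicate 7 held 8 of the 18 values. It was the highest library of its model for Ace at 39.4 CPM (next 23.6), Cpm at 486 CPM (next 349), Fgf8 at 0.05996 CPM (next 0.0133), Igf2 at 339 CPM (next 139), Lipk at 0.00999 CPM (next 0) and Wnt5b at 78.9 CPM (next 50.1). It was the lowest library for Dusp6 at 342 CPM (next 493) and Nkd1 at 164 CPM (next 281).

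Replicate 1 of 2225 held 5. It was the highest library of its model for Csn3 at 7.57 CPM (next 4.11), Krt27 at 0.2096 CPM (next 0.0642), Notum at 6.37 CPM (next 3.57) and Tfap2b at 0.131 CPM (next 0.0305). It was the lowest library for Dusp4 at 25.5 CPM (next 39.9). Replicate 3 of 2225 was the highest library of its model for Tmem229a at 0.0283 CPM (next 0). Replicate 4 of 2225 was the highest library of its model for Myh7 at 0.105 CPM (next 0.0283) and Wap at 0.0524 CPM (next 0.0267). Replicate 5 of 2225 was the highest library of its model for Cd4 at 11.9 CPM (next 7.35). Replicate 8 of 2225 was the highest library of its model for Prlr at 1.55 CPM (next 1.08). Values under 0.1 CPM, such as those of Lipk, Noxa1 and S100g, rest on a few counts. Of the differences named in the report, those of Wif1 and Krt16 lost their call without the library concerned, as given there.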

How the results depend on the processing

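The number of called genes was 10819, and it was 10844 with DESeq2 size factors, 10648 without the filter on low counts, 10796 with the 14 libraries alone, 10888 with DESeq2 and 10041 with limma on the authors' normalized values. With limma 59.8% of the calls were higher in 2224, against 52.5%, the median of all genes was 0.10 on the log2 scale, and 3 calls turned direction, none of them a gene named here. With only replicates 2 to 4 of 2224 and 5 and 6 of 2225, whose labels carry neighbouring numbers, 6557 genes were called, 3282 higher in 2224 and 3275 higher in 2225, from 3 against 2 libraries. Leaving out 1 library gave 9425 to 10682 calls, 5109 to 5627 higher in 2224 and 4316 to 5132 higher in 2225. Of 186 named genes that were called, 148 stayed called under every alternative that gave a value, and 10 lost the call when 1 library was left out. With only replicates 2 to 4 of 2224 and 5 and 6 of 2225, 24 named genes lost the call: Acta1, Axin2, Ccnd1, Cdh1, Cdk1, Dusp6, Etv5, Hey1, Id4, Ifit1, Lalba, Lck, Ltf, Myh4, Myh7, Ngp, Nkd2, Oxtr, Peg3, Rab10os, S100a8, Vim, Wif1 and Wnt5a. With limma Cd4, Lalba, Lck, Rab10os, Vim and Wif1 lost it, and without the filter on low counts Lalba and Lck. Of 90 list counts, 46 moved by over 1.5 times with only replicates 2 to 4 of 2224 and 5 and 6 of 2225. The number was 37 with only replicates 1 to 4 of 2225, 11 with only replicates 5 to 10, 36 with only replicates 2 and 4 of 2224 and 35 with only replicates 1 and 3, the last 4 settings chosen after seeing the data, and all 5 leave fewer libraries to test.

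No paired analysis was possible because the labels give the models no shared replicate numbers, and the replicate numbers used here follow the order of the samples. Depth limits genes near 0: a model with no count has a level below 3 counts over its summed depth, and differences of genes under 1 CPM move with single counts. With 4 libraries of 2224, 2 of them rich in muscle RNA and 1 in cornified RNA, calls of those gene groups rest on single libraries.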

Other observations

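Xist, the RNA that coats and silences 1 X chromosome in female cells (chrX:103460366-103483254), was chosen after its values were seen. It stood at 1739, 929.6, 1289.98 and 1279 CPM in 2224 and at 24.1, 44.1 and 78.3 CPM in 2225, a difference of 4.78 ± 0.39, adjusted p = 1.33e-17. Every 2224 library was above every 2225 library, and the other 11 models had means of 64.2 to 2507 CPM, so 2225 lay below all of them. The X-linked genes Rhox5, Rhox2g, Xlr4a and S100g were higher in 2225, and the X-linked genes Bex4 and Fgf13 higher in 2224, as given in the report. Over the 778 tested genes placed on the X chromosome the median difference was -0.0136. No relation between these genes and Xist was tested.

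Marker lists of other cell types that the tumours could hold had few calls. Of 12 B and plasma cell genes, 2 were higher in 2224 and 3 in 2225, and their sum was 44.8 to 62.1 CPM in 2224 and 33.4 to 81.3 CPM in 2225. Of 8 mast cell genes, 1 was called in each direction, and none of the 2 calls held without 2224 replicate 2, 3 or 4. Of 12 adipocyte genes, 2 were higher in 2224 and 1 in 2225, with sums of 74.1 to 156 CPM in 2224 and 103 to 162 CPM in 2225, and the count for 2224 ranged from 0 to 6 as single libraries were left out.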
